A study of Mus musculus with 9 samples.

Results

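The genes described here encode the tumour necrosis factor (TNF) superfamily of ligands, their receptors, and the TRAF adaptors that bind the receptors inside the cell. They were measured in mouse T cells cultured under Th17 conditions. Members were chosen by name, from a list of 44 gene symbols made with earlier results of these data known. Each was read from the probe set annotated to it, the one with the highest mean where there were several. Of the 44, 41 were measured (15 of 17 ligands, 22 of 22 receptors and 4 of 5 adaptors), among 22180 named genes in all. Tnfsf12 and Tnfsf13 shared a probe set with the fused locus Tnfsfm13, whose values lay between 6.66 and 6.84 in the 9 arrays on the log2 scale. That probe set was not tested, and no probe set in the annotation used here carried Traf3.

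The 3 genotypes, with 3 arrays each, were compared. SRG3 cKO cells carry a conditional knockout and are labelled SRG3-deficient; Smarcc1 encodes SRG3, part of the core of Swi/Snf, a complex that moves nucleosomes. RORγt KO cells are labelled RORγt-deficient and lack the transcription factor that directs Th17 differentiation. WT cells are the controls. All 3 genotypes were naive CD4+ T cells (CD25-, CD44 low, CD62L high) sorted from spleen and stimulated for 60 h with plate-bound anti-CD3 and anti-CD28 (10 µg/ml each). The medium held TGF-β1 (1 ng/ml), IL-6 (30 µg/ml as the labels write it), anti-IL-4 and anti-IFN-γ (2 µg/ml each). The Cre line behind the conditional knockout, the strain and the age of the mice are not given in the sources used here. The labels call the arrays biological replicates without naming separate mice or cultures, and p-values therefore cover the spread among these arrays, which may be technical.

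TNF superfamily ligands are mostly trimeric membrane proteins, some of them shed, and each binds 1 or more receptors with cysteine-rich extracellular domains. Some receptors carry a death domain and can start apoptosis; others recruit TRAF proteins and activate NF-κB. On helper T cells several of these receptors (OX40, GITR, 4-1BB, CD27, HVEM) deliver costimulation after antigen recognition. The T cells in turn use ligands such as TNF, lymphotoxin, CD40 ligand and RANKL to act on neighbouring cells.

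Values are log2 probe set intensities. The words rise, fall and differ are kept for genes that passed limma's moderated test at an adjusted p under 0.05 over all 22180 genes. SE is the fit's standard error, intervals are 95% confidence intervals, and means are given ± SD with n = 3 arrays. A probe set's level was not set against another's, since probes differ in brightness.

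Before the results, the cells were checked. Smarcc1 fell in SRG3 cKO cells (8.47, 8.79 and 8.62, against 10.13, 10.32 and 10.39 in WT cells; log2 change -1.65, SE 0.09, adjusted p = 0.000207). The transcript targeted in the RORγt KO was not used here. Il17a, the cytokine gene that defines Th17 cells, was at 8.30 to 8.66 in SRG3 cKO, 6.72 to 7.04 in RORγt KO and 10.09 to 11.14 in WT arrays. Of 6 Th17 markers, all fell in RORγt KO cells, and Il17a, Il17f, Il22 and Il23r fell in SRG3 cKO cells, where Ccr6 (0.02) and Il1r1 (-0.03) did not pass. Il22 was dim, at 3.13 to 3.83 over the 9 arrays, below the 25th percentile of all values (6.12). Whether it was expressed is not known. All 6 measured T cell markers lay above the 75th percentile of all values (8.23) in all 9 arrays. On principal component 1, with 28.8% of the variance, 1 array stood apart in each genotype. These were SRG3 cKO array 1 at 3.98 (its group's other arrays at -3.27 and -2.06), RORγt KO array 3 at 3.22 (9.82 and 12) and WT array 1 at -1.38 (-10.5 and -11.8). In bulk RNA, fewer cells of a type and less RNA per cell cannot be told apart.

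Of the 41 members, 7 passed the test in at least 1 of 3 comparisons. The share of all genes that passed in at least 1 comparison was not computed. Shares for each comparison are given below. These 7 members are 4 ligand genes (Tnf, Lta, Tnfsf8 and Tnfsf11) and 3 receptor genes (Tnfrsf9, Tnfrsf10b and Tnfrsf26). The reference sequence upstream of these ligand genes is shown because they carry the results below. Ltb is added as the neighbour of Tnf and Lta that passed no test. Each run is the 250 bases before the gene's start, 5′ to 3′ on the gene's strand, from RefSeq, build GRCm38.p6. Tnf is at chr17:35202008-35202257 (minus strand), Lta at chr17:35205352-35205601 (minus), Ltb at chr17:35194257-35194506 (plus), Tnfsf8 at chr4:63861285-63861534 (minus) and Tnfsf11 at chr14:78308044-78308293 (minus). Capitals mark matches to the motifs searched.
Tnf: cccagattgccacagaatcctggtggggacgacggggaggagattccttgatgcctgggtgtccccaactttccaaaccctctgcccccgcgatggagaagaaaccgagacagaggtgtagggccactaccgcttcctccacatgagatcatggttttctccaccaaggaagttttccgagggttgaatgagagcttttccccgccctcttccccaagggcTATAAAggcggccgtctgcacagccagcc
Lta: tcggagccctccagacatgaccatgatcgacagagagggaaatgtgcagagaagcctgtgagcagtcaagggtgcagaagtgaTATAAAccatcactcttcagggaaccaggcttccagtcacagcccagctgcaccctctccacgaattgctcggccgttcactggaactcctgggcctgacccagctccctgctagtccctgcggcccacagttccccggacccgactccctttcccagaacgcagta
Ltb: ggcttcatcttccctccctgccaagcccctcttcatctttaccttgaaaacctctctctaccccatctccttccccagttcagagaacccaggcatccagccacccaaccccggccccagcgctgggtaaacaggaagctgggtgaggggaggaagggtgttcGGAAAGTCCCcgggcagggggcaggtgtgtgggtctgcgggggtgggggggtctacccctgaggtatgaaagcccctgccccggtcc
Tnfsf8: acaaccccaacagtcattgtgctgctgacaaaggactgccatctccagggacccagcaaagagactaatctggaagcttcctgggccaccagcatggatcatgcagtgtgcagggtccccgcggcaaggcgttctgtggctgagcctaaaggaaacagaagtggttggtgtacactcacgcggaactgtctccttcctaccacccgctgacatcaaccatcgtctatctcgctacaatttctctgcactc
Tnfsf11: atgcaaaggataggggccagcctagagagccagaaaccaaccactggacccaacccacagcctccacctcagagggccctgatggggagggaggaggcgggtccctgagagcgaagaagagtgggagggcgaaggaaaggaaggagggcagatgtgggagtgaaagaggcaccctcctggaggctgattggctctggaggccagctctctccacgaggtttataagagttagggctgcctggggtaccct

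Motifs were searched as letters. AGGTCA, the core bound by ROR and other nuclear receptors, was searched on both strands, and none of these 5 windows held it. It was in 14% of all 32851 upstream windows of the same length. The NF-κB consensus, searched on both strands, had 1 match, in Ltb (GGAAAGTCCC, 87 to 78 bases before the start), and was in 7.25% of all windows. TGANTCA, the AP-1 site, was in none of the 5 and in 6.75% of all. TATAAA, searched on the gene's strand only, was 29 to 24 bases before the start in Tnf and 167 to 162 bases before it in Lta, and in 7.59% of all windows. Over the 33 member genes with a window in the table (37 windows), AGGTCA was in those of Tnfrsf13b and Tnfrsf25, neither of which passed a test. The NF-κB consensus was in those of Ltb, Tnfrsf8, Tnfrsf9 and Tnfrsf25, and TGANTCA in those of Fas, Tnfrsf8, Tnfrsf9, Tnfsf13b and Tnfsf14. A match describes these letters only, and no match says only that they are not in the window.

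In SRG3 cKO against WT cells, 1 of the 41 members (2.44%) passed the test, Tnfsf11, which fell. Over all genes 0.523% passed. Of genes above the median of all values in at least 1 genotype, tested alone, 2 of 33 members (6.06%) and 1.64% of all genes passed, Tnfrsf9 being added. The median log2 change was -0.007 over the members and -0.006 over all genes, and the median absolute change was 0.087 over the members and 0.050 over all genes. Tnfsf11 encodes RANKL, the ligand of RANK and a driver of osteoclast formation that activated T cells also make. Its level was 8.41, 8.46 and 8.56 in SRG3 cKO arrays, against 9.20, 9.20 and 9.43 in WT arrays. Each SRG3 cKO array lay below each WT array, and the groups did not overlap. The fall was 1.74-fold (log2 change -0.80, SE 0.07, interval -0.95 to -0.65, adjusted p = 0.00192), the gene with the 5th smallest p of all. It passed whichever of the 9 arrays was left out, but not without array 1 of every genotype (-0.80, adjusted p = 0.148). In RORγt KO cells Tnfsf11 was at 9.33, 9.24 and 9.31, within the WT range (log2 change 0.02, interval -0.13 to 0.17). The receptors for RANKL did not pass in SRG3 cKO cells. Tnfrsf11a, which encodes RANK and lay below the median of all values (7.13) in all arrays, was at -0.08 (interval -0.22 to 0.05). Tnfrsf11b, for the soluble decoy receptor osteoprotegerin, was at 0.02 (-0.10 to 0.15).

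**Figure D1:**
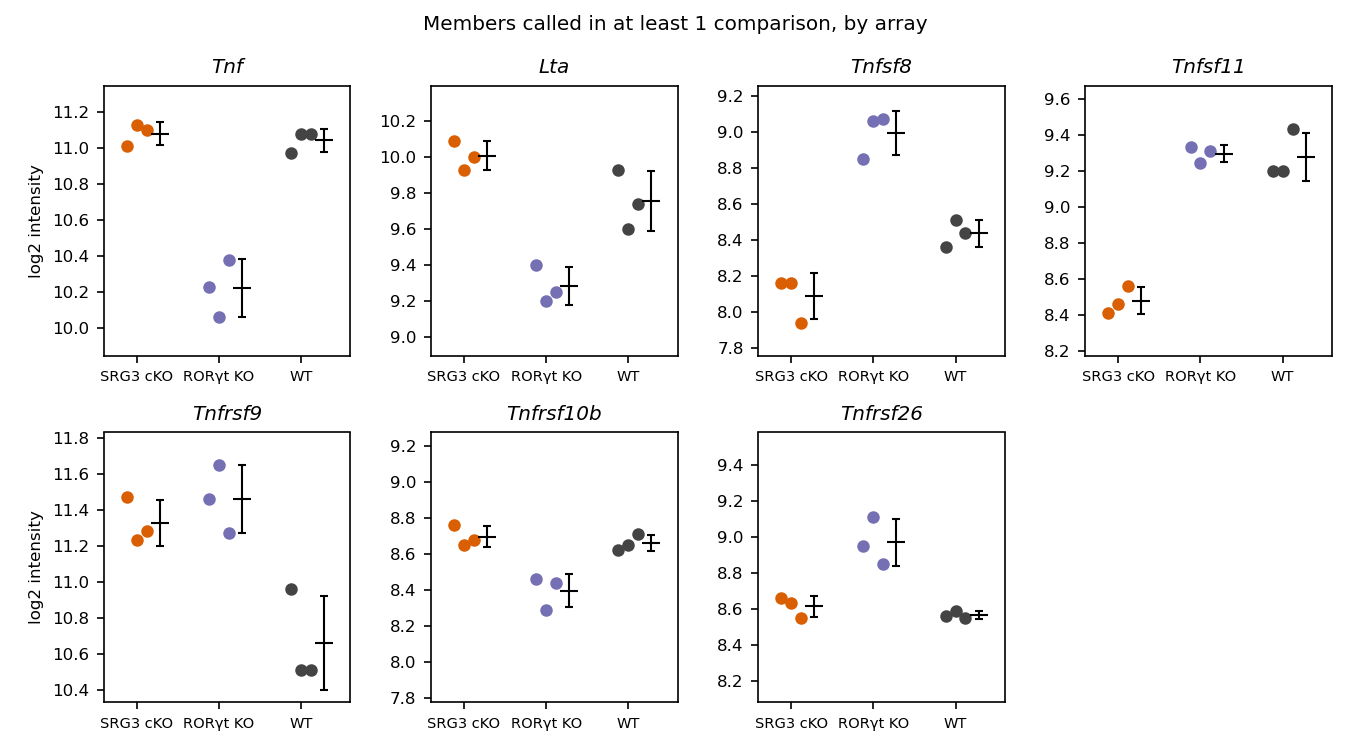
Log2 intensity (vertical axis, a window of equal height in every panel) of the 7 members that passed the test in at least 1 comparison, with a point for each array and, beside it, the mean and SD (n = 3) for SRG3 cKO, RORγt KO and WT cells. Tnfsf11 is low in SRG3 cKO arrays alone (8.41 to 8.56), Tnf in RORγt KO arrays alone (10.06 to 10.38), and Tnfsf8 is lowest in SRG3 cKO and highest in RORγt KO arrays.

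Tnfrsf9 had the next largest change in SRG3 cKO cells. It encodes 4-1BB, a costimulatory receptor induced on activated T cells. Its level was 11.47, 11.23 and 11.28 in SRG3 cKO arrays, against 10.96, 10.51 and 10.51 in WT arrays. The groups did not overlap, and WT array 1 lay nearest the knockout arrays. The log2 change was 0.66 (SE 0.13, interval 0.37 to 0.96) with an adjusted p = 0.0776, which did not pass. Same-numbered SRG3 cKO and WT arrays deviated together only weakly from their group means (correlation 0.287, 0.186 and 0.116 for arrays 1 to 3). The highest correlation of these SRG3 cKO arrays with a differently numbered WT array was -0.152, 0.0772 and -0.0109. With the replicate number as a block over all 9 arrays Tnfrsf9 passed (adjusted p = 0.0389), as it did without WT array 1 (0.0273). That block includes the RORγt KO arrays, of which array 2 did not deviate together with WT array 2. In the 6 SRG3 cKO and WT arrays alone the block left Tnfrsf9 at an adjusted p = 0.0512. Its ligand gene Tnfsf9 was at -0.01 (interval -0.12 to 0.11).

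The other ligands in SRG3 cKO cells did not pass, with log2 changes from -0.35 to 0.32 over 14 genes. Tnfsf8, which encodes the CD30 ligand, was at 8.16, 8.16 and 7.94 in SRG3 cKO arrays, against 8.36, 8.51 and 8.44 in WT arrays. These groups did not overlap, but the change of -0.35 (interval -0.53 to -0.18) had an adjusted p = 0.112. Lta, for lymphotoxin α, was at 0.25 (interval 0.06 to 0.44, adjusted p = 0.317), with an adjusted p = 0.0484 under the replicate block of 9 arrays and 0.135 under that of 6. Tnfsf4, for the OX40 ligand, was at 0.32 with a wide interval (-0.07 to 0.71), its SRG3 cKO arrays at 7.90, 8.52 and 8.04 and its WT arrays at 7.50, 8.02 and 7.98. In all, 7 of the 41 members (17.1%) did not overlap between SRG3 cKO and WT arrays, against 13.6% of all genes. With the block over 9 arrays 3 members passed, Tnfsf11 lower and Tnfrsf9 and Lta higher. With the block in the 6 arrays of these genotypes 1 passed, Tnfsf11. Over all genes 195 and 32 passed in these fits, against 116 without a block.

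None of the 22 receptor genes passed limma's test in SRG3 cKO cells, and 4 had an unadjusted p under 0.05, as did 11.2% of all genes. Of 7 costimulatory receptors of T cells in the list, 6 had log2 changes above 0, with a median of 0.24. Besides Tnfrsf9 they were Tnfrsf14 (HVEM) at 0.29 (interval 0.10 to 0.47, adjusted p = 0.225), Tnfrsf18 (GITR) at 0.28 (0.05 to 0.50, adjusted p = 0.342), Cd27 at 0.24, Tnfrsf4 (OX40) at 0.09 and Tnfrsf25 (DR3) at 0.02. Tnfrsf8, the CD30 gene, was at -0.16 (-0.31 to -0.01, adjusted p = 0.416). T cell markers lay the same way: 5 of 6 had log2 changes above 0 in SRG3 cKO cells, with a median of 0.181, and 0 passed limma's test (3 with an unadjusted p under 0.05). Their mean level was 10.82 to 10.99 in SRG3 cKO, 10.77 to 10.87 in RORγt KO and 10.66 to 10.83 in WT arrays, and their part in the values of the costimulatory receptor genes was not tested. The receptor for the Tnf and Lta products that carries a death domain, Tnfrsf1a, was at -0.05, and the other TNF receptor gene, Tnfrsf1b, at 0.02. None of the 4 adaptor genes passed (1 with an unadjusted p under 0.05), and Traf1, a TRAF induced by NF-κB, had the largest change, 0.24 (interval 0.01 to 0.47).

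**Figure D2:**
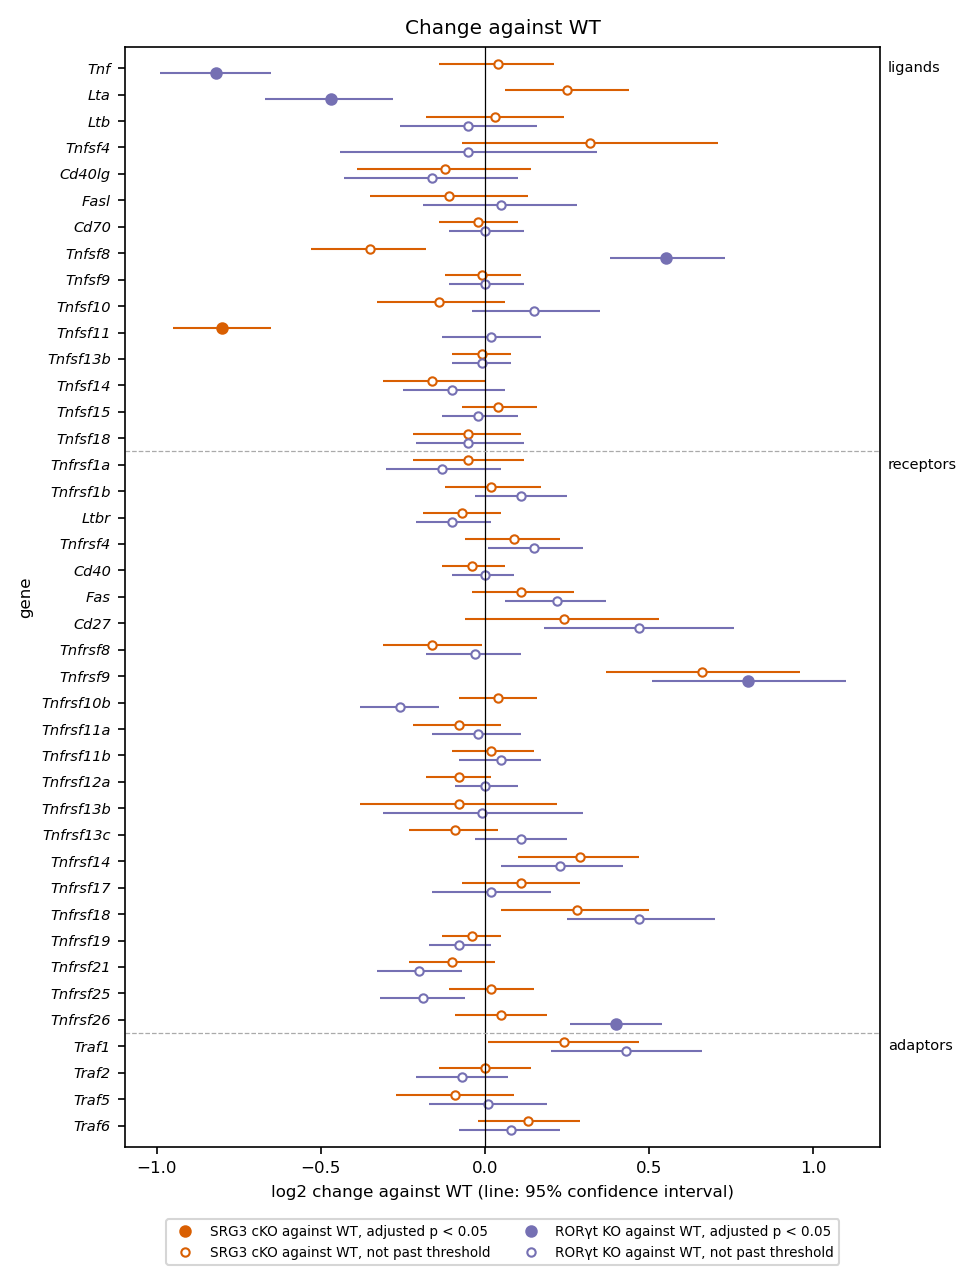
Log2 change against WT (horizontal axis, lines are 95% confidence intervals) of the 41 measured members, in SRG3 cKO and RORγt KO cells, with filled points for those past the threshold. Filled points are Tnfsf11 for SRG3 cKO, and Tnf, Lta, Tnfsf8, Tnfrsf9 and Tnfrsf26 for RORγt KO.

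In RORγt KO against WT cells, 5 of the 41 members (12.2%) passed the test, Tnf and Lta lower and Tnfsf8, Tnfrsf9 and Tnfrsf26 higher. Over all genes 1.04% passed, 0.694% higher and 0.343% lower. The members lie among brighter genes: of those above the median of all values in at least 1 genotype, tested alone, 7 of 33 members (21.2%) and 2.89% of all 12475 genes passed. The members added there were Tnfrsf10b (limma adjusted p = 0.0326) and Tnfrsf18 (0.0359). The median log2 change was 0.003 over the members and -0.003 over all genes, and the median absolute change 0.095 and 0.051. The count rested on single arrays: it was 1, Tnf, without WT array 2, WT array 3 or RORγt KO array 2, and 2 without RORγt KO array 1. It was 3 without SRG3 cKO array 2 or 3, which bear only on the pooled variance, and 0 without array 1 of every genotype.

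Tnf encodes TNF itself, the founding ligand of the family. Its level was 10.23, 10.06 and 10.38 in RORγt KO arrays, against 10.97, 11.08 and 11.08 in WT arrays. The groups lay apart by more than the range of either. The fall was 1.77-fold (log2 change -0.82, SE 0.08, interval -0.99 to -0.65, adjusted p = 0.00135), and it passed whichever array was left out. In SRG3 cKO cells Tnf was at 11.01, 11.13 and 11.10, with a log2 change of 0.04 against WT (interval -0.14 to 0.21). The TNF receptor genes did not pass in RORγt KO cells: Tnfrsf1a was at -0.13 (-0.30 to 0.05) and Tnfrsf1b at 0.11 (-0.03 to 0.25).

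Lta is the neighbour of Tnf, with no protein-coding gene between them in assembly GRCm38.p6, and its product binds the same receptors. Its level was 9.40, 9.20 and 9.25 in RORγt KO arrays, against 9.93, 9.60 and 9.74 in WT arrays, and the groups did not overlap. It fell by 0.47 on the log2 scale (SE 0.09, interval -0.67 to -0.28, adjusted p = 0.0379), but the removal of any of the 9 arrays left it short of the threshold (adjusted p from 0.0525 to 0.175). Over all 19 alternatives Lta passed in 8, with the lowest adjusted p, 0.00293, under the replicate block of 9 arrays. Ltb, on the other side of Tnf, encodes lymphotoxin β, which anchors lymphotoxin α to the membrane. It was at 9.79, 9.63 and 9.63 in RORγt KO arrays, against 9.82, 9.69 and 9.68 in WT arrays, and these groups overlapped. Its log2 change was -0.05 (interval -0.26 to 0.16), and that of its receptor gene Ltbr was -0.10 (-0.21 to 0.02).

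Tnfsf8 rose in RORγt KO cells. Its level was 8.85, 9.06 and 9.07 in RORγt KO arrays, against 8.36, 8.51 and 8.44 in WT arrays, without overlap. The rise was 1.47-fold (log2 change 0.55, SE 0.08, interval 0.38 to 0.73, adjusted p = 0.0153). With an array removed it passed in 6 of 9 fits, and not without WT array 2, WT array 3 or RORγt KO array 2. The gene of its receptor CD30, Tnfrsf8, was at -0.03 (-0.18 to 0.11). Tnfsf15, which lies next to Tnfsf8 and encodes the ligand TL1A of DR3, was at -0.02. The remaining 12 ligand genes did not pass, with log2 changes from -0.16 to 0.15. They include Cd40lg, for the ligand that helper T cells use to activate B cells, at -0.16, and Fasl, the death ligand gene, at 0.05.

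Tnfrsf9 rose as well. Its level was 11.46, 11.65 and 11.27 in RORγt KO arrays, against 10.96, 10.51 and 10.51 in WT arrays, without overlap. The rise was 1.74-fold (log2 change 0.80, SE 0.13, interval 0.51 to 1.1, adjusted p = 0.0273), and it passed in 3 of 9 fits with an array removed, those without WT array 1, SRG3 cKO array 1 or RORγt KO array 3. Tnfsf9 was at 0.00 (interval -0.11 to 0.12). Tnfrsf26, a receptor gene that lies beside Tnfrsf22, was at 8.95, 9.11 and 8.85 in RORγt KO arrays, against 8.56, 8.59 and 8.55 in WT arrays. Each RORγt KO array lay above each WT array, and the log2 change was 0.40 (SE 0.06, interval 0.26 to 0.54, adjusted p = 0.0212). Tnfrsf26 passed in 5 of the 9 fits, and not without WT array 2 or 3 or RORγt KO array 1 or 2. Its neighbour Tnfrsf22 had an interval of -0.11 to 0.11, and Tnfrsf23, on the far side of Tnfrsf22, was at 0.31 (adjusted p = 0.173). None of the 7 superfamily genes outside the list passed limma's test in any comparison, and at most 1 had an unadjusted p under 0.05.

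Other costimulatory receptor genes lay on the same side in RORγt KO cells without passing over all genes. Cd27 was at 9.49, 9.26 and 9.06 in RORγt KO arrays, against 8.99, 8.78 and 8.62 in WT arrays (log2 change 0.47, interval 0.18 to 0.76, adjusted p = 0.170). Tnfrsf18 was at 10.93, 11.01 and 10.71 in RORγt KO arrays, against 10.61, 10.33 and 10.31 in WT arrays (0.47, interval 0.25 to 0.70, adjusted p = 0.0705). Neither pair of groups overlapped, and in all 15 of the 41 members (36.6%) did not overlap between RORγt KO and WT arrays, against 14.3% of all genes. For the measured genes of a list linked to these receptors, described further on, the share was 38.1%. It was not computed among brighter genes alone. Of the 7 costimulatory receptor genes, 5 had a change above 0, the exceptions being Tnfrsf8 at -0.03 and Tnfrsf25 at -0.19, with a median of 0.23. Tnfrsf4, which lies next to Tnfrsf18, was at 0.15 (interval 0.01 to 0.30), and Tnfrsf14 at 0.23 (0.05 to 0.42). Of the 6 T cell markers 5 had changes above 0 here too, with a median of 0.115, and 0 passed limma's test (1 with an unadjusted p under 0.05).

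Tested over all genes, the death domain receptor genes did not pass in RORγt KO cells (0 of 5 by limma). An unadjusted p under 0.05 was found for 4 of them, as for 12.7% of all genes, and 4 of the 5 had changes below 0. Tnfrsf10b, for a mouse receptor of TRAIL, was at 8.46, 8.29 and 8.44 in RORγt KO arrays, against 8.62, 8.65 and 8.71 in WT arrays (log2 change -0.26, interval -0.38 to -0.14, adjusted p = 0.0652). Its ligand gene Tnfsf10 was at 0.15 (-0.04 to 0.35). Tnfrsf21 (DR6) was at -0.20 (-0.33 to -0.07), Tnfrsf25 at -0.19 (-0.32 to -0.06) and Tnfrsf1a at -0.13, whereas Fas, the receptor for Fas ligand, was at 0.22 (0.06 to 0.37). Of the 4 adaptor genes 0 passed (1 with an unadjusted p under 0.05). Traf1 was at 9.64, 9.98 and 9.56 in RORγt KO arrays, against 9.39, 9.33 and 9.16 in WT arrays (0.43, interval 0.20 to 0.66, adjusted p = 0.108). Traf2, Traf5 and Traf6 lay between -0.07 and 0.08.

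**Figure D3:**
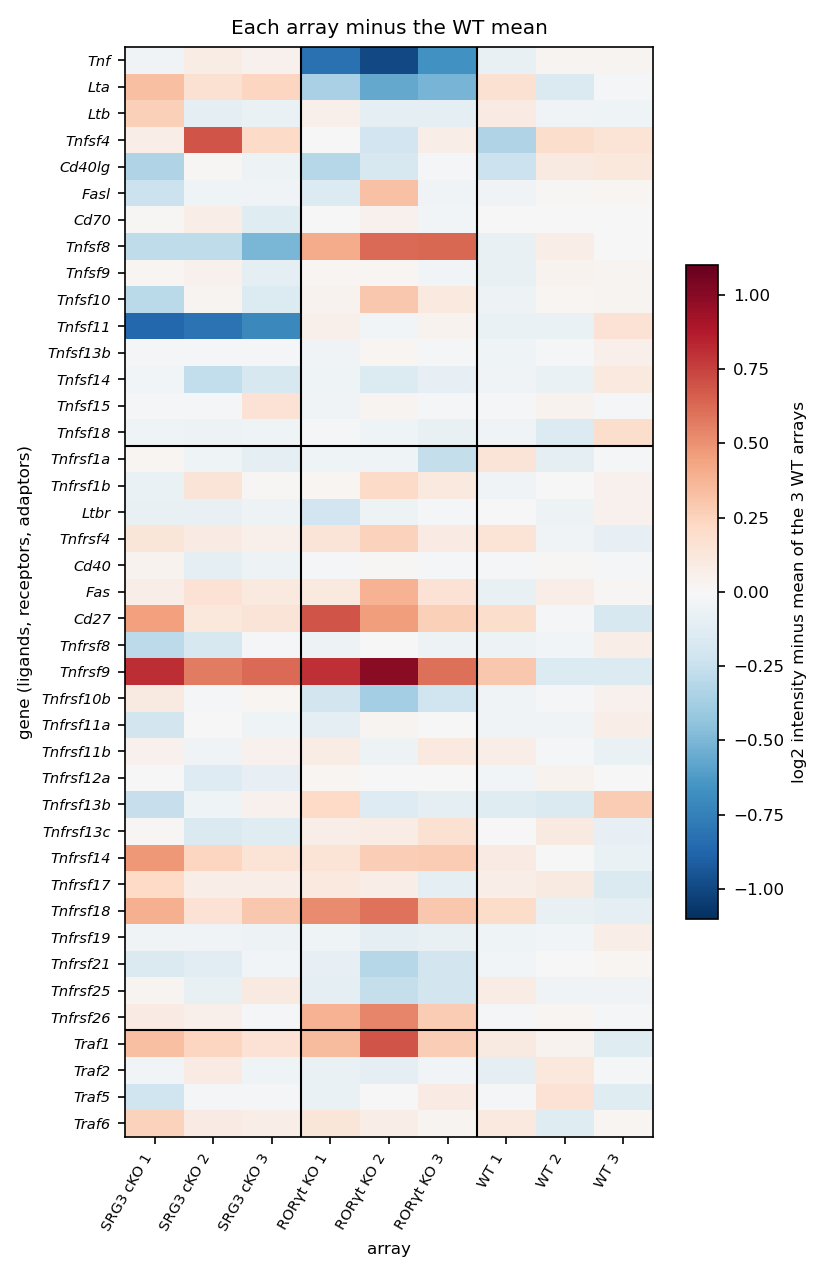
Log2 intensity of each of the 41 members (vertical axis: ligands, receptors and adaptors) in each of the 9 arrays (horizontal axis) minus the mean of the 3 WT arrays, red above and blue below it. Tnf and Lta are blue in the 3 RORγt KO arrays, Tnfsf11 is blue in the 3 SRG3 cKO arrays, and Tnfrsf9 is red in the 6 knockout arrays.

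The comparisons with WT share the WT arrays, so SRG3 cKO and RORγt KO cells were also compared directly, which tests whether the knockouts differ from each other. Of the 41 members 6 passed (14.6%), 3 higher and 3 lower in SRG3 cKO cells, and over all genes 1.28% passed, 0.595% higher and 0.681% lower. Among the brighter genes alone it was 6 of 33 members (18.2%) and 3.06% of all genes. Tnf (log2 difference 0.86, SE 0.08, adjusted p = 0.000772), Lta (0.72, SE 0.09, adjusted p = 0.00392) and Tnfrsf10b (0.30, SE 0.05, adjusted p = 0.0318) were higher in SRG3 cKO than in RORγt KO cells. Tnfsf8 (-0.91, SE 0.08, adjusted p = 0.000679), Tnfsf11 (-0.82, SE 0.07, adjusted p = 0.000607) and Tnfrsf26 (-0.35, SE 0.06, adjusted p = 0.0290) were lower. For each of these 6 genes the SRG3 cKO and RORγt KO arrays did not overlap. In all, 9 of the 41 members (22.0%) did not overlap between these genotypes, against 14.6% of all genes.

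The 4 ligand genes passed whichever of the 9 arrays was left out. Tnfrsf10b and Tnfrsf26 passed in 2 of these 9 fits each, and the count of members ranged from 4 to 6. Without array 1 of every genotype the count was 2, Lta and Tnfsf8. Over all genes the count was 283 with all 9 arrays and 138 to 261 with 1 array left out. It was 16 without array 1 of every genotype. The median log2 difference was -0.025 over the members and -0.001 over all genes.

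**Figure D4:**
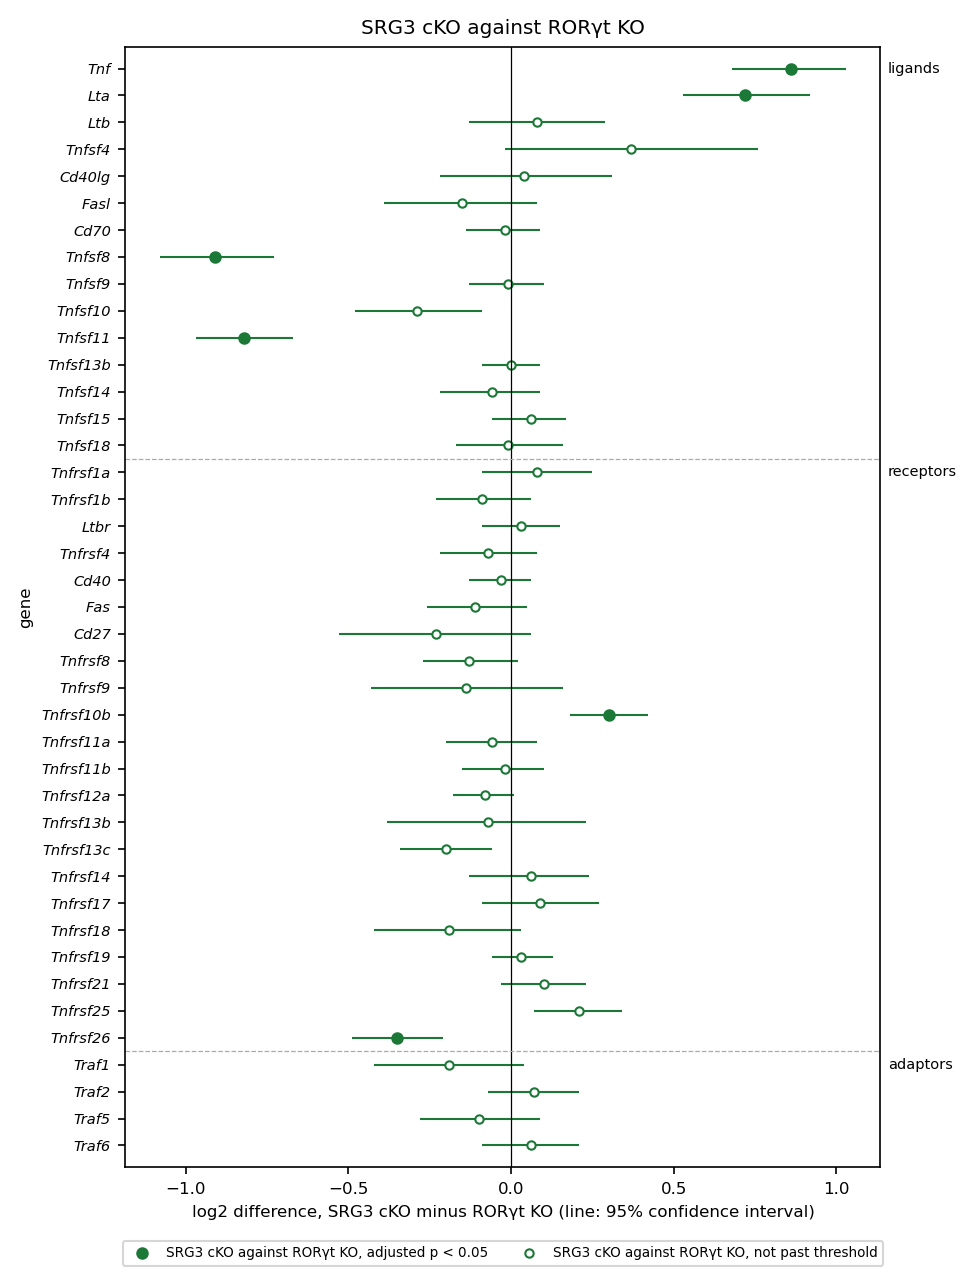
Log2 difference, SRG3 cKO minus RORγt KO (horizontal axis, lines are 95% confidence intervals), of the 41 members, with filled points for those past the threshold. Tnf, Lta and Tnfrsf10b lie to the right of 0, and Tnfsf8, Tnfsf11 and Tnfrsf26 to the left.

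Lta had a mean of 10.01 ± 0.08 in SRG3 cKO, 9.28 ± 0.11 in RORγt KO and 9.76 ± 0.16 in WT arrays. Its WT mean lay between those of the knockouts, and its SRG3 cKO and WT arrays overlapped. Tnfsf8 stood the other way, with 8.09 ± 0.13 in SRG3 cKO, 8.99 ± 0.12 in RORγt KO and 8.44 ± 0.07 in WT arrays. For Tnf, Tnfrsf10b and Tnfrsf26 as well the SRG3 cKO arrays overlapped the WT arrays, and for Tnfsf11 the RORγt KO arrays did. Tnfrsf9 did not pass between the knockouts (log2 difference -0.14, adjusted p = 0.762), and its arrays overlapped. Traf1 at -0.19 (interval -0.42 to 0.04), Cd27 at -0.23 (-0.53 to 0.06) and Tnfrsf18 at -0.19 (-0.42 to 0.03) did not pass either. Tnfsf4, at 0.37, had an interval of -0.02 to 0.76, and Tnfsf10, at -0.29, one of -0.48 to -0.09 (adjusted p = 0.222).

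**Figure D5:**
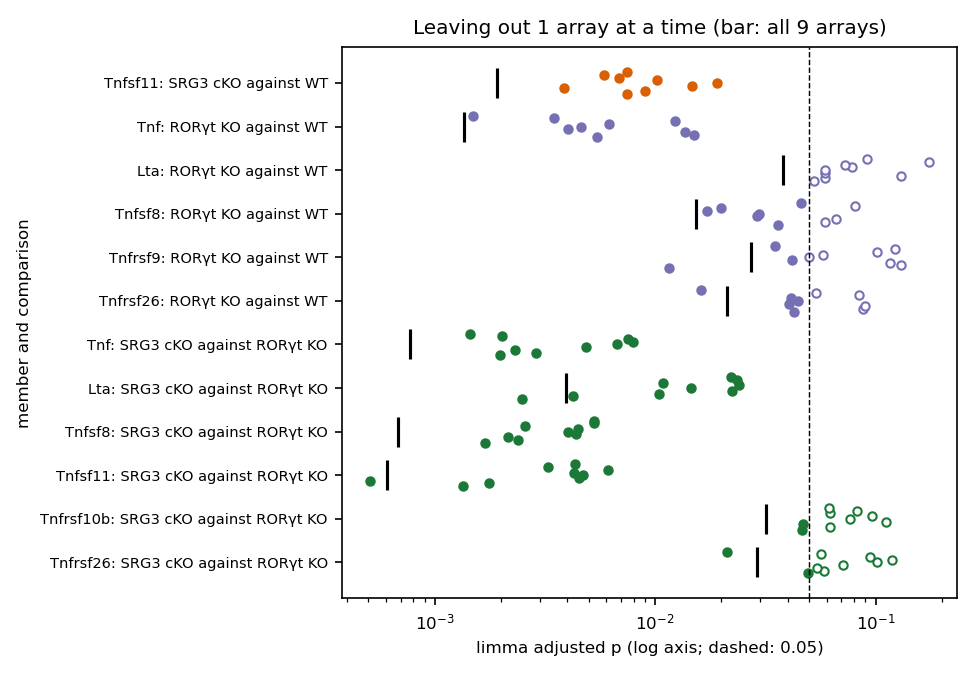
Adjusted p (horizontal log axis) of each member and comparison past the threshold with all 9 arrays (bar) and with each array removed in turn (points, filled under 0.05, dashed line). Tnfsf11 against WT in SRG3 cKO cells, Tnf against WT in RORγt KO cells and the 4 ligand genes in the direct comparison stay under 0.05, and Lta against WT in RORγt KO cells lies above it in all 9.

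Some members were dim. Cd70 and Tnfsf18 (the GITR ligand gene) were dimmer than the 25th percentile of the table (6.12) in all 9 arrays. Tnfsf10, Tnfsf13b, Tnfrsf11a, Tnfrsf17 and Tnfrsf19 lay below the median in all 9, and 19 members lay above the 75th percentile in all 9. The members named here as dim passed no test, and the background was not measured, so whether they were expressed is not known. The 4 receptor genes typical of B cells, Cd40, Tnfrsf13b (TACI), Tnfrsf13c (BAFF receptor) and Tnfrsf17 (BCMA), had changes from -0.09 to 0.11 in SRG3 cKO cells and from -0.01 to 0.11 in RORγt KO cells against WT, and 0 passed limma's test in any comparison, with 1 at an unadjusted p under 0.05 between the knockouts, where 11.1% of all genes were.

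Genes linked to these receptors, most of them signalling genes, were read from a list of 45, of which 42 were measured. Ripk1, Chuk and Nfkb1 were not measured. The list also held Adam10, Adam17 and Traf3ip2. In SRG3 cKO against WT cells 1 fell and none rose, Mlkl, which encodes the effector of necroptosis. It was at 7.54, 7.65 and 7.72 in SRG3 cKO arrays, against 8.11, 8.11 and 7.92 in WT arrays (log2 change -0.40, SE 0.07, adjusted p = 0.0443). In RORγt KO against WT cells 1 rose and none fell, Map3k5, for the stress kinase ASK1 (0.32, SE 0.05, adjusted p = 0.0185). Between the knockouts 4 passed: Tnfaip3, for the NF-κB inhibitor A20 (0.43, adjusted p = 0.0420), Tnip1, for a partner of A20 (0.27, adjusted p = 0.0462), and Tab2, for an adaptor of the kinase TAK1 (0.24, adjusted p = 0.0221), were higher in SRG3 cKO cells, and Mlkl (-0.49, adjusted p = 0.00784) was lower. Tnfaip3 stood at 10.08, 9.82 and 9.73 in SRG3 cKO, 9.49, 9.42 and 9.41 in RORγt KO and 9.56, 9.43 and 9.39 in WT arrays. By p, Tnfaip3 and Tnip1 ranked 246 and 260 among the 283 genes that passed between the knockouts. Mlkl ranked 83 among the 116 that passed in SRG3 cKO against WT cells. Whether the calls in this list hold with an array left out was not examined. The shares of the list that passed were 2.38%, 2.38% and 9.52%, beside 0.523%, 1.04% and 1.28% of all genes, and the list's median log2 values were 0.064, 0.025 and 0.059. In the same order, 33.3%, 38.1% and 40.5% of the list did not overlap between genotypes, against 17.1%, 36.6% and 22.0% of the members. Over all genes these shares were 13.6%, 14.3% and 14.6%. In RORγt KO against WT cells, where the members' share was highest, that of the list was about the same. Neither set was matched to all genes for brightness, and both were chosen with earlier results known.

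Markers of other cells were read in the same arrays. Of 7 measured B cell markers 0 passed limma's test in any comparison, with 0 at an unadjusted p under 0.05, and their mean level was 7.13 to 7.23 in SRG3 cKO, 7.15 to 7.27 in RORγt KO and 7.05 to 7.39 in WT arrays. Of 11 myeloid and dendritic cell markers 0 passed (3 with an unadjusted p under 0.05 in RORγt KO against WT, 0 in SRG3 cKO against WT and 4 between the knockouts). Over all genes the shares at that unadjusted threshold were 12.7%, 11.2% and 11.1% in the same order. Of 7 markers of CD8 T and NK cells 1 rose in RORγt KO cells, Klrd1, which encodes the receptor chain CD94 (7.16, 6.92 and 6.53, against 5.99, 5.84 and 6.04 in WT cells; log2 change 0.91, adjusted p = 0.0202). The mean level of that list was 6.62 to 6.68 in SRG3 cKO, 6.83 to 6.88 in RORγt KO and 6.69 to 6.74 in WT arrays. Its other 6 markers did not pass in RORγt KO cells and lay from -0.08 to 0.05 against WT. Among them, Cd8a was at -0.08, Cd8b1 at 0.03, Ncr1 at -0.03 and Klrb1c at 0.05. The cells had been sorted as naive CD4+ T cells before culture.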

How the data were processed

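RNA of 9 mouse Th17 samples, 3 per genotype, was biotin-labelled and hybridized to GeneChip arrays, per the labels' protocols. The authors deposited 41345 probe sets as log2 intensities; background correction, summarization and normalization are not given in the sources used here. Array medians were 7.12 to 7.14, and 0 sample columns stayed unused. A single symbol was annotated to 23521 probe sets, several to 1814 and none to 16010; symbols were updated by gene ID (23328 matched, RefSeq assembly GRCm38.p6). The highest-mean probe set was kept per gene (1082 genes had several), giving 22180 genes. limma 3.58.1 (R 4.3.3) compared the genotypes in 1 fit of all 9 arrays, with Benjamini-Hochberg adjustment over all genes, checked on simulated data. The number of arrays limits the precision. Same-numbered arrays correlated in their deviations from group means by 0.287, 0.186 and 0.116 for SRG3 cKO and WT. The values were 0.215, -0.00527 and 0.186 for RORγt KO and WT, and 0.223, -0.00544 and 0.137 between the knockouts. The highest correlation with a differently numbered array was -0.109, 0.0775 and 0.131 for RORγt KO and WT. Between the knockouts it was 0.0292, 0.148 and -0.0285. The labels pair no arrays, and this correlation alone does not settle a pairing. The main fit held no replicate block, so any pairing is left out of its p-values. The block was run only among the alternatives. Alternatives covered normalization, centring, dim genes, probe set choice, variance model, array weights, arrays fitted, replicate block and left-out arrays. The members and lists were chosen with earlier results of these data known. Values in every array are given for members past the threshold in a comparison, and for others among the largest changes or partners of those members.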

Additional observations from a re-analysis of the deposited data

How the results depend on the processing

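Every member kept its direction in each called comparison under all alternatives run. Quantile normalization, centring of each array, the mean of all probe sets, trended robust variances and array weights left the counts of members within 1.5 times. For SRG3 cKO against WT, where 1 member passed, testing only genes above the median gave 2 members and 204 genes (main 116), the replicate block 3 and 195, and the 6 arrays of these genotypes alone 1 member and 13 genes, or 1 (Tnfsf11) and 32 with the block. For RORγt KO against WT (5 members, 230 genes), brighter genes alone gave 360 genes, the replicate block 9 members and 374 genes, and the 6 arrays alone 1 member and 43 genes, or 4 members (Tnf, Lta, Tnfsf8 and Cd27) and 63 genes with the block. The 4 members added by the block over 9 arrays were Cd27, Tnfrsf18 and Traf1, higher, and Tnfrsf10b, lower; the labels do not pair these arrays. Between the knockouts (6 members, 283 genes) the 6 arrays gave 4 members and 142 genes, or 4 and 131 with the block. Leaving out 1 array, members ranged from 1 to 2, 1 to 5 and 4 to 6, and all genes from 18 to 87, 45 to 322 and 138 to 261. Without array 1 of every genotype, an alternative chosen after seeing the data like the block in 6 arrays, 0, 0 and 2 members and 1, 25 and 16 genes passed; 2 arrays per genotype remain there. Signal over background was not measured here, which limits statements on the dim members.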
